A study of Mus musculus with 10 samples.

Results

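The genes described here are those through which mammalian cells make sterols and fatty acids under the control of the SREBP transcription factors. The list held 39 genes and was taken as given: 19 of the sterol branch, 15 of the fatty acid branch and 5 regulators. This list and the further lists used below were chosen with earlier results of these data known. A gene was measured where a feature of the array was annotated with its symbol alone, which held for 34 of the 39. Acat2, Tm7sf2, Srebf1, Scd2 and Acsl3 had no such feature and were not analysed here. All 34 passed the filter on dim signals, so 34 of the 17801 genes tested in all were members.

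SREBP-2, encoded by Srebf2, chiefly drives sterol synthesis, and SREBP-1, encoded by Srebf1, chiefly drives fatty acid synthesis. Both are made as precursors in the membrane of the endoplasmic reticulum. When sterols are scarce, the escort protein Scap carries them to the Golgi, where proteases release the part that enters the nucleus. When sterols are plentiful, Insig1 and Insig2 hold Scap back. Insig1 is itself an SREBP target, and tumour cells commonly depend on this programme for membrane lipids.

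The cells were 4T1, an established mouse mammary carcinoma line, with 50000 cells at the start of each culture. They were grown for 5 days in RPMI medium with 10% fetal bovine serum, inside gels of 2 mg collagen per mL (low density, LD, 5 samples) or 3.5 mg per mL (high density, HD, 5 samples). The medium was changed on day 3 in both groups. All samples are of the 1 line, and serum, which carries cholesterol, was in the medium of both groups. Each sample was 1 Affymetrix mouse transcriptome array of total RNA, and all values are log2 RMA signals, a scale on which a difference of 1 is a doubling. The comparison asks how collagen density changed the expression of these genes. Whether the 5 gels of a group were set up independently is not stated in the labels, and the p-values therefore cover only the variation among these arrays, part of which may be technical. In bulk RNA, a change in the share of cells that express a gene and a change in RNA per cell cannot be told apart.

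Across all 17801 genes, limma with Benjamini-Hochberg adjustment at 0.05 called 50.9% of genes, 19.5% lower and 31.4% higher in HD, with a median log2 change of 0.055 and a median SD between replicates of 0.0734. Higher genes were 61.7% of the calls as deposited and 72.1% both after quantile normalization and after scaling on the array's control features. Those control features moved with the groups: the negative controls had a median of 5.67 ± 0.0516 on LD arrays and 5.42 ± 0.124 on HD arrays (SD, n = 5 each). The positive controls were higher in HD, at 9.21 and 9.28, and so were the background controls, at 3.47 and 3.63. The part of these controls in the results was not tested. No array duplicated another. Of 5 epithelial markers, 3 were called lower: Epcam fell by 0.60 (limma adjusted p = 2.15e-06), and the keratin gene Krt18 and Cdh1 fell by 0.13 and 0.105. Krt8 and Cldn7 gave no call. The summed log2 signal of the 5 was 53.4 to 53.6 on LD arrays and 52.5 to 52.9 on HD arrays, with Krt8 at 12.01 and 12.04. Of the adipocyte markers, Adipoq and Fabp4 lay below the signal floor of 5.24, and Plin1 was 6.04 in LD and 6.16 in HD (called higher, by 0.12). The summed log2 signal of the 4 adipocyte markers was 18.5 to 19.1 on LD arrays and 19.1 to 19.4 on HD arrays. Of 4 leucocyte markers, Ptprc, Csf1r and Adgre1 lay below the floor and Cd68 fell by 0.74, with summed log2 signals of 20.8 to 20.9 in LD and 20.1 to 20.4 in HD. Ptprc, Csf1r and Adgre1 differed by 0.05, 0.01 and 0.06, so Cd68 alone lowered the sum. Of the fibroblast markers, 1 was tested and gave no call, and all 3 endothelial markers lay below the floor. The part of these markers in the results was not tested.

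Of the 34 measured members, 21 were lower and 3 higher in HD. Over all genes, 19.5% were lower and 31.4% higher. The members' median log2 change was -0.21, beside 0.055 over all genes tested. The 5 HD values lay wholly below the 5 LD values for 20 members and wholly above for 3, which 15.1% and 21.6% of all genes did. Insig1, Scd1 and Fads1 were the 3 members at least 1.5-fold lower, a size reached by 1.56% of all genes, and no member was 1.5-fold higher, as 0.775% of all genes were. The 24 called members kept their direction in each fit that tested them except Acacb, described with the fatty acid genes; Acss2 and Acacb were not tested with the stricter filter on dim signals.

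**Figure D1:**
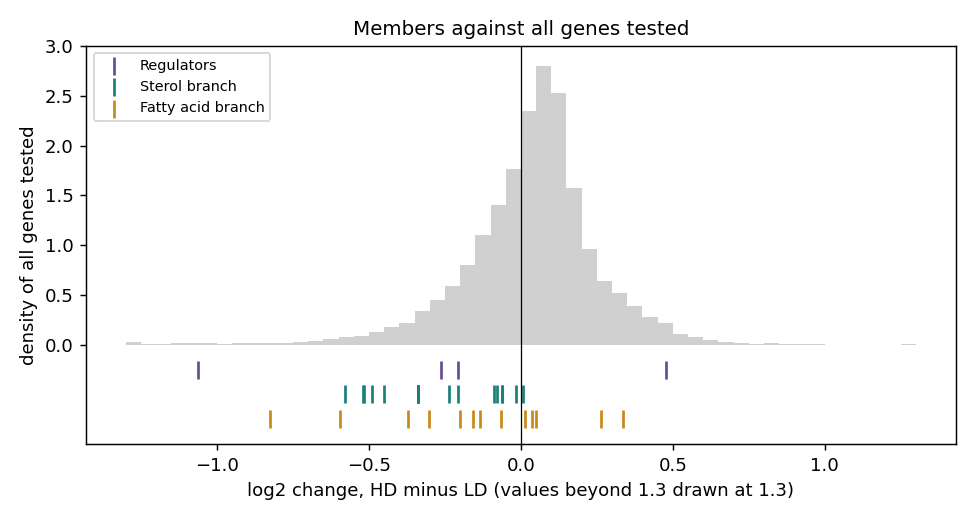
The histogram shows the density of log2 changes, HD minus LD, over all 17801 genes tested, and each tick below it is a measured member, coloured by group. Most ticks of the sterol branch lie left of 0, whereas the bulk of all genes lies just right of 0, with a median of 0.055.

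The regulators stood on both sides. Insig1, the anchor of Scap, had signals of 10.18, 10.27, 10.16, 10.17 and 10.17 in LD and 9.45, 9.09, 8.99, 9.14 and 8.98 in HD. Every HD array was far below every LD array, and HD replicate 1 was the highest of its group. Insig1 was 2.09-fold lower (change of -1.06 ± 0.0725 SE on the log2 scale, limma adjusted p = 1.26e-07), which placed it 52nd from the lowest of the 17801 changes. Its paralogue Insig2, which can also retain Scap, had signals of 8.65, 8.74, 8.56, 8.60 and 8.62 in LD and 8.41, 8.33, 8.38, 8.35 and 8.39 in HD. These groups did not overlap either, but the fall was smaller, at 0.26 ± 0.0386 SE (limma adjusted p = 7.4e-05). The intervals of the Insig1 change (95% confidence, -1.22 to -0.91) and of the Insig2 change (-0.35 to -0.18) did not overlap.

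Scap, the escort protein, moved the other way. Its LD signals were 8.79, 8.67, 8.77, 8.83 and 8.86 and its HD signals 9.19, 9.39, 9.30, 9.25 and 9.19. All HD arrays were above all LD arrays, and the rise was 1.39-fold (log2 change 0.48 ± 0.0483 SE, limma adjusted p = 2.98e-06). Srebf2, the gene of SREBP-2, had signals of 9.68, 9.58, 9.65, 9.70 and 9.62 in LD and 9.48, 9.47, 9.44, 9.48 and 9.32 in HD. The groups did not overlap, and Srebf2 fell by 0.21 ± 0.0410 SE (limma adjusted p = 8.88e-04). Transcript signals say nothing about how much SREBP precursor was cleaved.

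**Figure D2:**
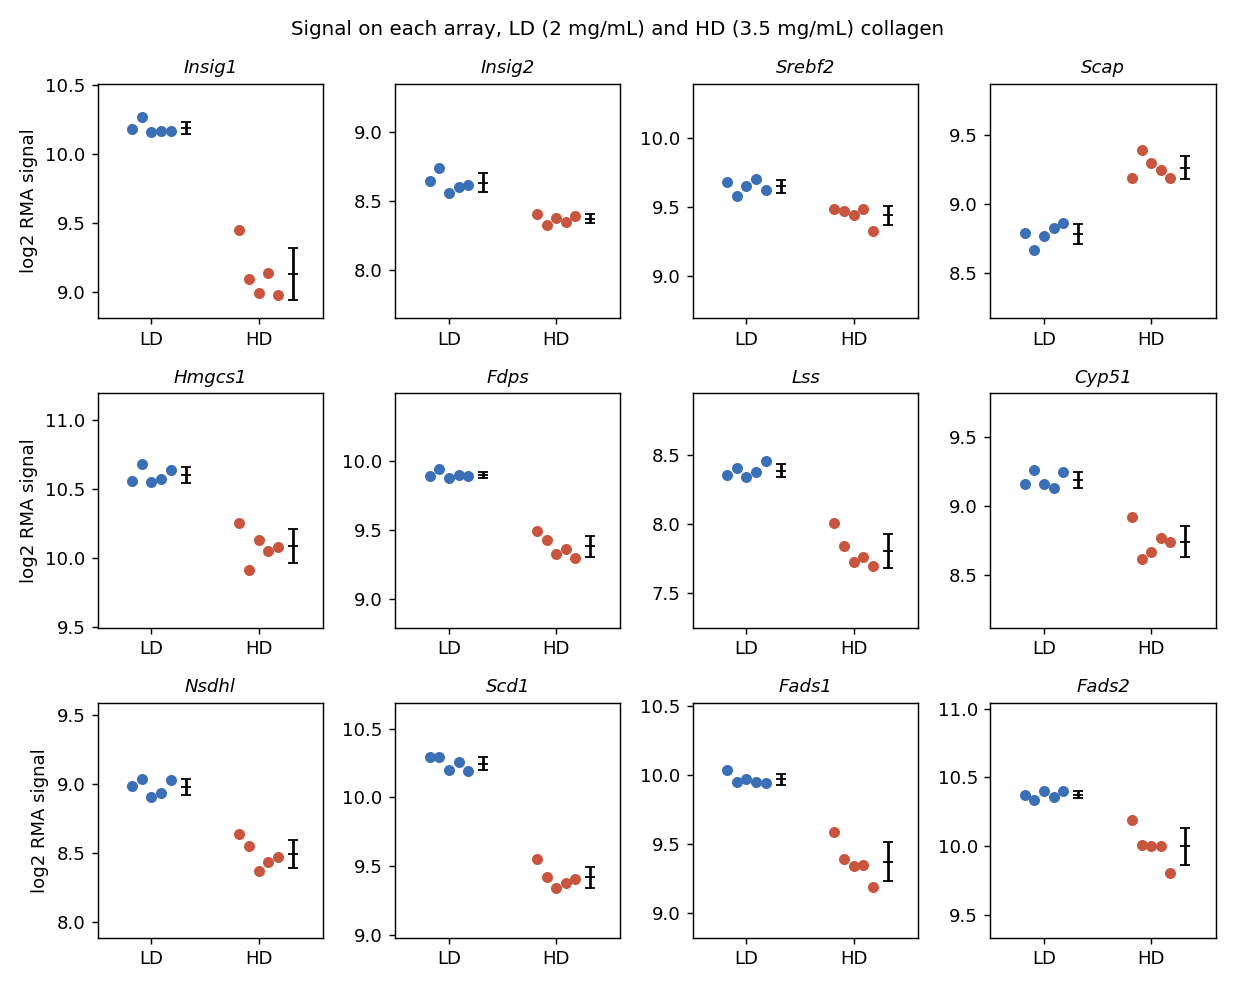
Each panel shows the log2 RMA signal of a member on the 5 LD (blue) and 5 HD (red) arrays in replicate order, with the group mean and SD beside them, over the same span of log2 units in every panel. Insig1 shows the widest gap, Scap lies higher in HD, and the HD groups of the other genes lie below their LD groups without overlap.

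The promoters of these genes are shown because SREBPs act through short promoter elements and many members moved together. RefSeq promoters (GRCm38.p6, 250 bases before to 50 after the start) matched 32 of the 39 members by symbol, with 43 promoters in all. They were searched on both strands for the sterol regulatory element (SRE) as TCACNCCAC, for CCAAT, for the E-box CACGTG and for the GC box GGGCGG. The exact SRE was found in 1 member (Hmgcs1), in 1.24% of all 32851 promoters and in 1.52% of tested genes with a promoter. With 1 mismatch allowed, a setting added after the exact matches were seen, it was found in 14 of the 32 members and in 24.2% of all promoters. It was then found in 10 of the 15 members called lower that had a promoter and in 3 of the 13 other measured members with one. Among tested genes with a promoter, 29.3% held such a match. A gene with more than 1 promoter was counted if any of them held the match. CCAAT was found in 27 of the 32 members and the GC box in 26, against 37.4% and 35.7% of all promoters and 41.9% and 64.5% of tested genes with a promoter. The E-box was found in 6 of the 32 members, in 7.15% of all promoters and in 1226 of the 11125 tested genes with a promoter. Of the same 15 lower and 13 other members, CCAAT was found in 13 and 11 and the GC box in 13 and 9. The E-box was found in 2 and 4 of them, and the exact SRE in 1 and 0. Of the 20 SRE matches with up to 1 mismatch in members' promoters, 2 overlapped another of these motifs, and no E-box did. A match of letters is a description and does not show binding.

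Below are the promoters of Hmgcs1, the gene with the exact element, Insig1, the member that fell most, and Nsdhl and Cyp51, sterol enzymes that fell by over 0.4 and held a match with 1 mismatch. The promoter of Lss, the sterol enzyme that fell most, held no such match and is not shown. Scd1, Fads1 and Fdps, which also fell by over 0.4, had no promoter matched by symbol. Capitals mark SRE matches with at most 1 mismatch and, in Insig1, also the E-box CACGTG. The Hmgcs1 promoter is at chr13:119690101-119690400 (plus strand), with the exact SRE starting 137 bases before the start site. That of Insig1 is at chr5:28071162-28071461 (plus strand), with the E-box starting 101 bases before the start and an SRE match that reads on the opposite strand. Those of Nsdhl and Cyp51 are at chrX:72918271-72918570 (plus strand) and chr5:4104648-4104947 (minus strand).
Hmgcs1: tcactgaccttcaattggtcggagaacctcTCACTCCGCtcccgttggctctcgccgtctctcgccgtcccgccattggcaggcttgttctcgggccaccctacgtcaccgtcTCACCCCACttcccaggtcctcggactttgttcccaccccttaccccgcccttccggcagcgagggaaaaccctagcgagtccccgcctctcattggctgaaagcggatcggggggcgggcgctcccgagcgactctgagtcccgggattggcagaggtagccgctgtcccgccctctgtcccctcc
Insig1: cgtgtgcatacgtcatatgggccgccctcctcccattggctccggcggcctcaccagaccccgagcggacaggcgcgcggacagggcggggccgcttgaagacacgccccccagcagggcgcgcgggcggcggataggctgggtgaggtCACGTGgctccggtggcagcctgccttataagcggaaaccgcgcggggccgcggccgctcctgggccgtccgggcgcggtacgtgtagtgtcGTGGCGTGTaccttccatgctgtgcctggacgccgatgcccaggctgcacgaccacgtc
Nsdhl: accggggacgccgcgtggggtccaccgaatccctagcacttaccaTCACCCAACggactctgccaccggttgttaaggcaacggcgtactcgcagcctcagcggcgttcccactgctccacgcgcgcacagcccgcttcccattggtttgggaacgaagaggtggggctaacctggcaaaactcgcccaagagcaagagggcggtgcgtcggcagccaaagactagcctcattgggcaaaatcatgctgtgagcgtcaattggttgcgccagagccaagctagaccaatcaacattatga
Cyp51: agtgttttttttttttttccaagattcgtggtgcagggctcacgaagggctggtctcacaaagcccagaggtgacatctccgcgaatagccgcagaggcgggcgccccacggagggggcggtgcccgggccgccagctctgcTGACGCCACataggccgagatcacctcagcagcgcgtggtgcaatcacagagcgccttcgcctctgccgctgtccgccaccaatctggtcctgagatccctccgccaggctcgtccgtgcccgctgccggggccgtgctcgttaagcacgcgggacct

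Among members that fell by less than 0.4, matches with 1 mismatch were also found. The windows below, 29 bases each, show those of 4 genes, written in the direction of the gene with the match in capitals. They were chosen to show how the letters of the element vary between Srebf2, Dhcr7, Insig2 and Msmo1; Acly, Acacb and a further place in the Msmo1 promoter held matches not shown. The windows are at chr15:82147097-82147125 (plus strand) for Srebf2 and chr7:143823259-143823287 (plus strand) for Dhcr7. Those of Insig2 and Msmo1 are at chr1:121328017-121328045 and chr8:64733737-64733765 (both minus strand). Dhcr7 and Insig2 each had more than 1 promoter, and their other promoters held no such match.
Srebf2: tgacgcaccaTCACCCCATgagccgcttc
Dhcr7: ggaaaagggcTCACTTCACcttatagctc
Insig2: cacgagtcccTCACTCCGCccacagagtc
Msmo1: ctcactattcTCACTCCATccgcgcagcc

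The sterol branch was lower in HD at 11 of its 17 measured members and higher at none, and its median change was -0.34 on the log2 scale. Over all genes tested, 19.5% were lower and 31.4% higher, with a median of 0.055. Of the 17 changes, 16 were negative, and they ran from -0.58 to 0.01. For 10 members the HD values lay wholly below the LD values, as they did for 15.1% of all genes.

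At the entry to the pathway, Hmgcs1 (HMG-CoA synthase) had signals of 10.56, 10.68, 10.55, 10.57 and 10.64 in LD and 10.25, 9.91, 10.13, 10.05 and 10.08 in HD. All HD arrays lay well below the LD arrays, HD replicate 1 nearest to them. Hmgcs1 was 1.43-fold lower (change of -0.52 ± 0.0549 SE on the log2 scale, limma adjusted p = 4.74e-06). The kinases that phosphorylate mevalonate gave no call. Mvk, mevalonate kinase, averaged 7.85 ± 0.0511 on LD arrays and 7.84 ± 0.0909 on HD arrays (SD, n = 5 each), a difference of -0.02 (95% confidence interval -0.12 to 0.08), and its sign turned after quantile normalization (0.04) and control-row scaling (0.04). Pmvk, phosphomevalonate kinase, differed by -0.09 (-0.18 to -0.001; limma adjusted p = 0.0829), and it was called without LD replicate 1 (-0.12, limma adjusted p = 0.0343). Mvd, the decarboxylase that yields isopentenyl diphosphate, fell by 0.34 ± 0.0487 SE, from 7.85 to 8.0 on LD arrays to 7.41 to 7.67 on HD arrays.

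Idi1, the isomerase of isopentenyl diphosphate, differed by -0.08 (95% confidence interval -0.24 to 0.08). Its arrays spread widely in both groups, with an SD of 0.128 in LD and 0.147 in HD. Fdps, which joins isoprene units into farnesyl diphosphate, had signals of 9.89, 9.94, 9.88, 9.90 and 9.89 in LD and 9.49, 9.43, 9.33, 9.36 and 9.30 in HD. The LD arrays were nearly identical, and all HD arrays lay clearly below them. Fdps was 1.43-fold lower (change of -0.52 ± 0.0403 SE on the log2 scale, limma adjusted p = 3.17e-07).

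At the step where sterol synthesis separates from other isoprenoid products, Fdft1 (squalene synthase) fell by 0.34 ± 0.0384 SE. The next enzyme, the squalene epoxidase Sqle, fell by 0.34 ± 0.0394 SE. Neither gene's groups overlapped: the lowest LD and the highest HD signal were 9.38 and 9.18 for Fdft1 and 9.52 and 9.33 for Sqle. Lss, lanosterol synthase, which closes the sterol rings, had signals of 8.36, 8.41, 8.34, 8.38 and 8.46 in LD and 8.01, 7.84, 7.73, 7.76 and 7.70 in HD. Again HD replicate 1 lay nearest to the LD arrays. Lss fell most among the sterol enzymes, by 1.49-fold (log2 change -0.58 ± 0.0541 SE, limma adjusted p = 1.58e-06).

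The enzymes that trim lanosterol fell in part. Cyp51, the lanosterol demethylase, had signals of 9.16, 9.26, 9.16, 9.13 and 9.25 in LD and 8.92, 8.62, 8.67, 8.77 and 8.74 in HD. It was 1.37-fold lower, without overlap (log2 change -0.45 ± 0.0535 SE, limma adjusted p = 1.16e-05). Msmo1, the methylsterol oxidase, fell by 0.34 ± 0.0631 SE (limma adjusted p = 5.54e-04), but its groups overlapped, because HD replicate 1 (8.21) lay above LD replicate 4 (8.19). Nsdhl, the sterol dehydrogenase that acts with Msmo1, had signals of 8.99, 9.04, 8.91, 8.94 and 9.03 in LD and 8.64, 8.55, 8.37, 8.44 and 8.47 in HD. No HD array reached the LD range, and Nsdhl was 1.40-fold lower (change of -0.49 ± 0.0506 SE on the log2 scale, limma adjusted p = 3.77e-06). Hsd17b7, the keto-reductase of the same demethylation steps, differed by 0.01 (95% confidence interval -0.08 to 0.10) with overlapping groups.

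Of the last steps to cholesterol, Dhcr7, the reductase that completes the molecule, fell by 0.21 ± 0.0409 SE (limma adjusted p = 8.68e-04), from 8.17 to 8.28 in LD to 7.94 to 8.13 in HD. Ebp, the sterol isomerase, and Sc5d, the desaturase before Dhcr7, gave no call, and each differed by -0.06. Their 95% confidence intervals were -0.15 to 0.02 for both. Ebp had the sign turned after quantile normalization (0.03) and control-row scaling (0.09), and Sc5d was called lower in both (-0.11 and -0.17) and without HD replicate 1 (-0.09, limma adjusted p = 0.0479). Stard4, which carries sterols through the cytosol, fell by 0.24 ± 0.0499 SE, without overlap (7.48 to 7.65 in LD and 7.20 to 7.44 in HD).

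**Figure D3:**
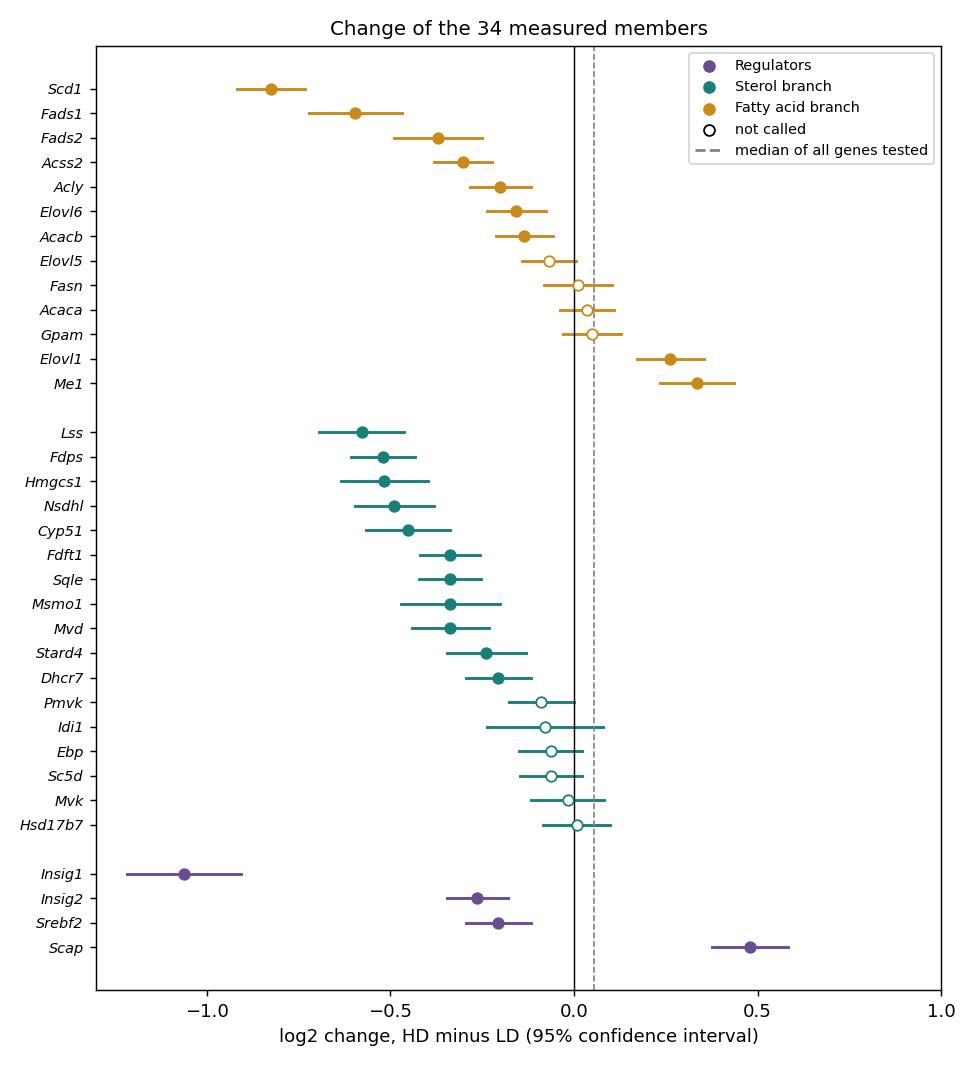
Each point is the log2 change, HD minus LD, of a measured member with its 95% confidence interval from limma, ordered within the fatty acid branch (top), the sterol branch and the regulators (bottom). Filled points passed the test, open points did not, and the dashed line marks the median of all genes tested (0.055). In the sterol branch no called point lies right of 0, whereas Me1 and Elovl1 of the fatty acid branch and Scap of the regulators do.

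In the fatty acid branch, 7 of 13 measured members fell and 2 rose, with a median log2 change of -0.13 and a range from -0.83 to 0.34. The shares were 53.8% lower and 15.4% higher, beside 19.5% and 31.4% over all genes. The median was the change of Acacb, whose call depended on the normalization, as described below. The falls were largest among the desaturases. Scd1, which puts the double bond into stearate and palmitate, had signals of 10.29, 10.29, 10.20, 10.26 and 10.19 in LD and 9.55, 9.42, 9.34, 9.38 and 9.41 in HD. The gap between the groups was several times the spread within them, and Scd1 was 1.77-fold lower (change of -0.83 ± 0.0432 SE on the log2 scale, limma adjusted p = 1.45e-08). A dimmer feature annotated as Scd1 changed by -0.64, with a mean of 7.07 in LD and 6.42 in HD, and its groups did not overlap either.

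Fads1 and Fads2 make polyunsaturated fatty acids by adding double bonds nearer the carboxyl end. Fads1 had signals of 10.04, 9.95, 9.97, 9.95 and 9.94 in LD and 9.59, 9.39, 9.34, 9.35 and 9.19 in HD. It was 1.51-fold lower (change of -0.60 ± 0.0587 SE on the log2 scale, limma adjusted p = 2.47e-06). Fads2 had signals of 10.37, 10.34, 10.40, 10.36 and 10.40 in LD and 10.19, 10.01, 10.00, 10.00 and 9.81 in HD. Its HD arrays spread more than its LD arrays (SD 0.137 and 0.0259) but stayed below them, and it was 1.29-fold lower (change of -0.37 ± 0.0558 SE on the log2 scale, limma adjusted p = 9.08e-05). The second feature of Fads2 changed by -0.46, also without overlap.

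The core enzymes that build palmitate gave no call. Acaca, the cytosolic acetyl-CoA carboxylase, averaged 9.09 ± 0.0404 on LD arrays and 9.12 ± 0.0278 on HD arrays (SD, n = 5 each), a difference of 0.04 (95% confidence interval -0.04 to 0.11). Fasn, fatty acid synthase, was 10.7 ± 0.0658 in LD and 10.7 ± 0.0652 in HD, a difference of 0.01 (-0.08 to 0.11). Neither direction was firm: after control-row scaling Acaca differed by -0.02 and Fasn was called lower (-0.18, limma adjusted p = 0.00976). Acacb, the carboxylase isoform tied to mitochondria and to the control of fatty acid oxidation, fell by 0.13 ± 0.0363 SE (limma adjusted p = 0.00717). That call was lost after quantile normalization (-0.07, limma adjusted p = 0.115) and its sign turned after control-row scaling (0.07, limma adjusted p = 0.347). Gpam, which starts glycerolipid synthesis, differed by 0.05 (95% confidence interval -0.03 to 0.13), and was called higher after quantile normalization (0.11) and control-row scaling (0.13).

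The elongases diverged. Elovl1, which extends saturated very long chains, had signals of 8.47, 8.50, 8.48, 8.50 and 8.53 in LD and 8.67, 8.89, 8.79, 8.77 and 8.68 in HD. It rose 1.20-fold without overlap (log2 change 0.26 ± 0.0426 SE, limma adjusted p = 1.73e-04). Elovl6, which extends palmitate to stearate, had signals of 10.26, 10.33, 10.25, 10.30 and 10.33 in LD and 10.21, 10.17, 10.06, 10.12 and 10.14 in HD. It fell by 0.16 ± 0.0373 SE (limma adjusted p = 0.00329), also without overlap. Elovl5, the elongase of polyunsaturated chains, had signals of 10.47, 10.43, 10.37, 10.41 and 10.41 in LD and 10.35, 10.39, 10.36, 10.37 and 10.28 in HD. Its groups overlapped and it gave no call (-0.07, 95% confidence interval -0.14 to 0.01), although it was called lower after quantile normalization (-0.12) and control-row scaling (-0.23).

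The enzymes that supply acetyl-CoA or NADPH, which serve both branches, did not move together. Acly, ATP citrate lyase, fell by 0.20 ± 0.0389 SE, from 10.05 to 10.13 in LD to 9.79 to 9.98 in HD. Acss2, which makes acetyl-CoA from acetate, fell by 0.30 ± 0.0368 SE, from 6.97 to 7.06 to 6.66 to 6.78. Me1, the cytosolic malic enzyme that yields NADPH, rose by 0.34 ± 0.0469 SE (limma adjusted p = 4.85e-05), from 8.93 to 9.08 in LD to 9.28 to 9.5 in HD.

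Set side by side, the sterol branch had a share of 64.7% called lower and none higher, and the fatty acid branch 53.8% lower and 15.4% higher. The shares over all genes were 19.5% lower and 31.4% higher. Without Stard4 and without the 3 suppliers Acly, Acss2 and Me1, the medians were -0.34 and -0.10, with 10 of 16 sterol enzymes and 5 of 10 fatty acid enzymes lower. The members of a branch are not replicates, so no test of the difference between the branches was made. On single arrays, the mean deviation of the sterol members from their LD means was -0.16, -0.27, -0.33, -0.29 and -0.31 in HD replicates 1 to 5 and between -0.03 and 0.05 in LD. For the fatty acid members it was -0.10, -0.13, -0.16, -0.15 and -0.21 in HD and between -0.01 and 0.01 in LD. The least negative HD array was thus replicate 1 in both branches.

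HD replicate 1 was the highest HD array for 19 of the 21 members called lower, the exceptions being Dhcr7 and Acacb. Among all 3468 genes called lower it was the highest HD array for 1293 (37.3%). Without it, 22 members were lower, Sc5d being added, and 3 higher. The median changes were then -0.355 in the sterol branch and -0.124 in the fatty acid branch. Over all genes in that fit, 19.4% were lower and 31.5% higher, with a median change of 0.059.

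**Figure D4:**
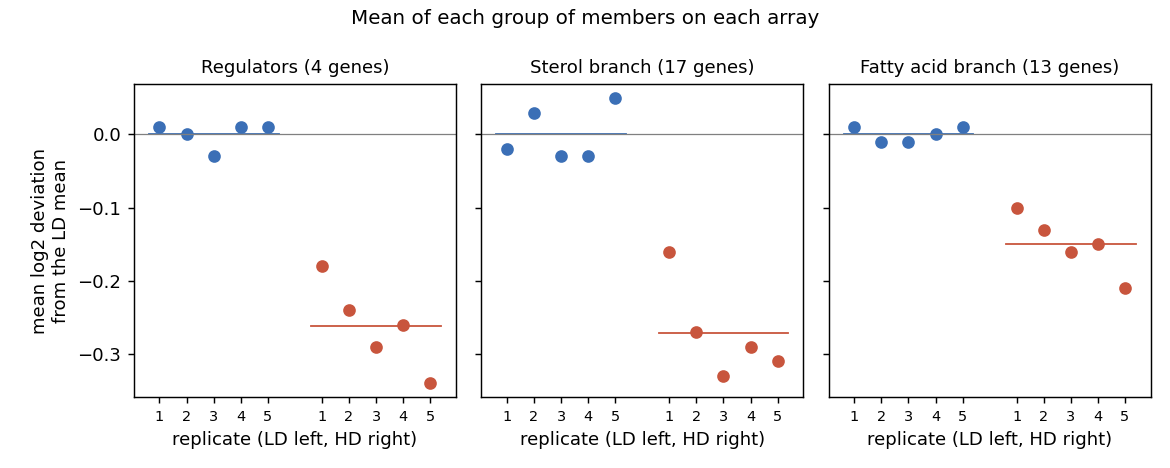
Each point is 1 array, LD in blue and HD in red, and gives the mean log2 deviation of the measured regulators, sterol members or fatty acid members from their own LD means, with lines at the group means. In all 3 panels every HD array lies below every LD array, and HD replicate 1 is the least negative. The regulator mean covers 4 genes, of which Scap rose (0.48) and Insig1 fell most (-1.06).

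Other genes of SREBP processing, sterol handling and lipid assembly moved in both directions. Of 43 such genes outside the list, 36 were measured, and 10 were lower and 10 higher, with a median log2 change of 0.04; shares of 27.8% each stand beside 19.5% lower and 31.4% higher over all genes. In SREBP processing and sterol sensing, 3 of 7 fell and 1 rose. Erlin1 and Erlin2 form a complex that restrains SREBP in the endoplasmic reticulum, and they parted: Erlin1 rose by 0.38 ± 0.0429 SE and Erlin2 fell by 0.28 ± 0.0371 SE. Sec23a, a coat protein of the vesicles that leave the endoplasmic reticulum, fell by 0.24 ± 0.0465 SE. Mbtps1, the protease that makes the initial cut in SREBP and named outside the rule, fell by 0.09 (limma adjusted p = 0.043), a call lost without each of 8 of the 10 arrays in turn (limma adjusted p up to 0.101), all but LD replicate 2 and HD replicate 1.

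The counts of the next 3 lists stand beside 19.5% lower and 31.4% higher over all genes. Among isoprenoid and sterol side branches, Tmem97, a sterol-regulated membrane protein that binds the cholesterol exporter Npc1, was the single call of 5 (20%). It rose by 0.45 ± 0.0640 SE (limma adjusted p = 5.24e-05), from 9.09 to 9.32 in LD to 9.51 to 9.81 in HD, against the direction of the sterol enzymes. In sterol efflux and storage, 3 of 8 fell and 2 rose (37.5% and 25%). Mylip, the sterol-induced ubiquitin ligase for lipoprotein receptors, fell by 0.41 ± 0.0437 SE, and Npc2, which hands cholesterol out of the lysosome, fell by 0.38 ± 0.0452 SE. The sterol exporter Abcg1 rose by 0.22 ± 0.0440 SE. Among the fatty acid and lipid partners, 4 of 16 fell and 6 rose (25% and 37.5%), shares near those over all genes. Lpin1, the phosphatidate phosphatase of triglyceride synthesis, fell most, from 8.06 to 8.16 in LD to 7.37 to 7.63 in HD (1.56-fold, limma adjusted p = 2.26e-07). Tecr, the reductase that completes each elongation cycle, fell by 0.38 ± 0.0425 SE, and Mlx, a partner of carbohydrate-responsive transcription factors, rose by 0.34 ± 0.0401 SE.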

How the data were processed

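Per the labels, total RNA from 5 LD and 5 HD gels was biotin-labelled and hybridised to Affymetrix MTA 1.0 arrays. The deposited values are log2 signals from RMA, as the submitters' processing notes name it; its software and version, and the genome build, stay unnamed in the sources used here, and the log2 scale was read from the values (1.49 to 14.3, array medians 5.19 to 5.28). RMA equalises arrays and compresses folds. Scan dates and scanner files were not analysed here, and batches could not be examined. The number of arrays limits the precision.

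Of 72688 rows, 30605 named 1 gene (Sc4mol read as Msmo1) by the platform annotation, giving 30143 symbols. A gene was represented by its brightest row and tested if its mean exceeded the median of all rows (log2 5.24), which left 17801 genes. This floor lay below the median of the negative controls, 5.666 on LD and 5.415 on HD arrays. Passing the filter therefore does not show that a gene was detected. Groups were compared with limma 3.58.1 (R 4.3.3), two-sided, without covariates, and p-values were adjusted by Benjamini-Hochberg over the 17801 genes. In simulated data over 17801 genes, 50 genes each were changed by 0.25, 0.5, 1 and 2 on the log2 scale. The test recovered 80% of those changed by 0.25 and 98% at 0.5, with 7.8% of calls false. The adjustment depends on how many genes change, and 50.9% of genes were called in the arrays themselves. These shares therefore describe the simulated setting and not this comparison.

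The members and lists were chosen with earlier results of these data known. Values of every array are given for members called with a change of at least 0.4, for the regulators and for paralogues; of each further list, up to 3 called genes with the largest change are named. Alternatives were quantile normalization, median centring, control-row scaling, other filters, row averaging, other variance models, array weights, a replicate block, leaving out each array, and other thresholds. Deviations of same-numbered arrays correlated at 0.186, -0.091, -0.0358, 0.216 and -0.0249, and replicate numbers were therefore not used as pairs.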

Additional observations from a re-analysis of the deposited data

Results flagged for a closer look

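Within groups of 5 arrays, 4 of the 90 groups examined (members and named pathway genes) had an array set apart from the others, where chance gives about 1 in 20. Each value is the array's gap to its nearest neighbour as a share of the group's range. Insig1 was highest in LD replicate 2 (10.27, next 10.18; 0.803). In the same array Acaca was lowest (9.02, next 9.10; 0.795) and so was Fasn (10.59, next 10.70; 0.718). Srebf2 was lowest in HD replicate 5 (9.32, next 9.44; 0.763).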

How the results depend on the processing

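Of the 34 measured members, 24 kept their direction and their side of the threshold in every fit that tested them. The exceptions were Acacb, which lost its call after quantile normalization and turned its sign after control-row scaling, and 9 members with no call. The stricter filter tested 31 members, 19 of them lower and 3 higher, and left out Acss2, Acacb and Ebp. Of all 10908 genes tested with that filter, 24.2% were lower and 38.5% higher, larger shares than the 19.5% and 31.4% of the main fit. With the replicate block the counts were again 21 lower and 3 higher members, and no call of a member changed. Among other pathway genes the block gave 9 lower (Mbtps1 lost, limma adjusted p = 0.0615) and 11 higher. Over all genes the block called 19.1% lower and 31.8% higher. Called and at least 1.5-fold, 3 members were lower and 0 higher: 0 of the sterol branch lower, 2 of the fatty acid branch lower and 0 higher, 1 regulator lower and 0 higher, and 1 other pathway gene lower and 0 higher. Of all genes tested, 1.56% were called and at least 1.5-fold lower, and 0.775% called and at least 1.5-fold higher. The sterol median was -0.277 after quantile normalization and after control-row scaling. The fatty acid median was -0.178 after control-row scaling, -0.067 with the stricter filter and -0.101 for branch enzymes only, and that of all members -0.248 after control-row scaling. The stricter filter tested 28 of the 36 other pathway genes, 11 of them lower and 6 higher. The shares over all genes with that filter were 24.2% lower and 38.5% higher.

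Signs turned for Mvk after quantile normalization (0.037) and control-row scaling (0.036), for Ebp likewise (0.028 and 0.09), for Fasn likewise (-0.032 and -0.178), for Acaca and Acacb after control-row scaling (-0.018 and 0.065), and for Hsd17b7 with array weights (-0.017). Leaving out each array in turn gave -0.052 to 0.005 for Mvk, -0.014 to 0.036 for Hsd17b7 and -0.016 to 0.038 for Fasn, none of them called. The cause of these changes was not tested. Low signal limits what can be said of Acacb, the member nearest the floor.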
